A study of Homo sapiens with 6 samples.

Results

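FGF1, a fibroblast growth factor ligand, and PDGFRA, the alpha receptor for platelet-derived growth factors, were examined in LX-2 cells treated with ALB after TGF-β1. They are 2 of the 937 genes in the deposited table. Both were chosen by name, with their opposite directions between these groups already known, and the table itself had been selected on the same contrast by the authors (fold change over 2 and P under 0.01). Their fold changes are therefore given as descriptions, without a test. In brief, FGF1 was 12.4-fold lower and PDGFRA 2.62-fold higher in the ALB group at the estimated depths. With scaling by table sums the log2 fold changes were -2.87 and 2.14, and with limma on log2(FPKM + 1) they were -2.48 and 0.38, beside -3.63 and 1.39 at the estimated depths. Counts were lowest in the ALB libraries for FGF1 and in the TGF-β1 libraries for PDGFRA, and counting error made up a larger part of the error of PDGFRA.

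The LX-2 line was derived from human hepatic stellate cells, the main matrix-producing cells of the injured liver, and ALB is albiflorin, a monoterpene glycoside of peony root. The ALB group was exposed to TGF-β1 (20 ng/mL, 24 h), followed by ALB for 24 h (3 libraries, ALB replicates 1 to 3). The TGF-β1 group received the same TGF-β1 for 24 h and then medium without ALB for the same time (3 libraries, labelled control by the submitters). All 6 libraries thus came from cells exposed to TGF-β1, and no unexposed cells were analysed here. The ALB dose of the sequenced cells was not given in the sources used here. Nothing in these sources says whether the 3 libraries of a group came from separate cultures, so the errors measure the spread between libraries, which may be technical.

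Depth was estimated from the ratio of count to FPKM (fragments per kilobase, scaled to library depth) at 35800000 to 41600000 fragments per ALB library and 33800000 to 38100000 per TGF-β1 library. Of 12 stellate cell and myofibroblast markers, 3 were in the table, namely the collagen genes COL1A2 and COL3A1 and the actin-binding gene TAGLN, all lower with ALB. Their summed level was 95 to 190 FPKM in ALB libraries, against 237 to 404 FPKM in TGF-β1 libraries. The neurotrophin receptor gene NGFR was the only gene in the table of 8 listed here as markers of quiescent stellate cells. NGFR was higher with ALB (12 to 35.9 FPKM, against 1.00 to 1.94 FPKM), and no cell state is read from this single gene. The labels also name a hepatocyte cell type, and 0 of 10 hepatocyte markers were in the table. The table holds only genes called as different between the groups. A marker expressed alike in both would be absent, so these marker counts do not show which cell types were present. Of the other lists, 2 of 8 endothelial markers (0.821 to 1.03 FPKM, against 1.64 to 2.12) and 4 of 7 epithelial markers (122 to 160 FPKM, against 290 to 296) were lower with ALB. With TMM factors, 0 of these 2 endothelial and 2 of these 4 epithelial markers passed edgeR's test. The single leukocyte marker of 7 in the table, ITGAM, was higher (0.262 to 0.61 FPKM, against 0.142 to 0.199). The part of these marker levels in the results below was not tested. In bulk libraries, fewer cells expressing a gene and less RNA per cell cannot be told apart.

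As background, fibroblast growth factors bind receptor tyrosine kinases of the FGFR family together with heparan sulfate, and the activated receptors signal through the RAS and ERK and the PI3K pathways. FGF1, the acidic fibroblast growth factor, binds all FGFR types, lacks a classical signal peptide and leaves cells by an unconventional route. Platelet-derived growth factors are dimeric ligands of the receptor tyrosine kinases PDGFRA and PDGFRB, and PDGF is a well-known mitogen of hepatic stellate cells. PDGFRA binds dimers containing PDGF-A, PDGF-B or PDGF-C chains, whereas PDGF-D acts mainly on PDGFRB.

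FGF1 (ENSG00000113578.17) lies on the minus strand of chromosome 5 at 142592178 to 142698070 (GRCh38, GENCODE 29). It has 16 annotated transcripts, 13 of them coding, with several start sites. PDGFRA (ENSG00000134853.11) lies on the plus strand of chromosome 4 at 54229097 to 54298247 and has 10 annotated transcripts, 6 of them coding. Promoter windows of both genes are shown to set their start sites beside letters recognised by factors that act after TGF-β1 (SMAD proteins), after growth factors (AP-1, serum response factor) and in the Hippo pathway (TEAD). RefSeq promoter windows (GRCh38.p14, 250 bases before to 50 after a start site, 300 in all) were searched on both strands for 4 motifs. These were a SMAD motif (CAGAC), an AP-1 motif (TGANTCA), a TEAD motif (GGAATG) and the CArG box of serum response factor. FGF1 has 4 windows, of which 2 overlap, and PDGFRA has 2. The window with the most matches is printed for each gene, so these windows were chosen for their matches, and 4 of the 6 windows held none. Each is written 5′ to 3′ on the strand of its gene, with motif matches in capitals.
FGF1 window, chr5:142644190-142644489, minus strand: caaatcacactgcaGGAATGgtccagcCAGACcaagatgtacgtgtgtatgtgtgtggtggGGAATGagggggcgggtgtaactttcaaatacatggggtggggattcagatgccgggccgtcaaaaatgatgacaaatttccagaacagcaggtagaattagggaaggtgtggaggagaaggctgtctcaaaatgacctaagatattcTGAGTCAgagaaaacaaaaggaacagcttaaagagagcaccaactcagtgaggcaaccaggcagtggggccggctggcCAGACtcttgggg
PDGFRA window, chr4:54229043-54229342, plus strand: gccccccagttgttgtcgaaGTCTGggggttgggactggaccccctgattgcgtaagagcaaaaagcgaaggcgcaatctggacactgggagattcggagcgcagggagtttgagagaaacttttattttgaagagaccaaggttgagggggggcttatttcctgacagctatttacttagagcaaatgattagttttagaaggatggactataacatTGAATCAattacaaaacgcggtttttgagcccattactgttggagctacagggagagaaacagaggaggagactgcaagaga

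The start site of the FGF1 window lies 53831 bases from that of the longest coding transcript, FGF1-216, and which start sites LX-2 cells use was not examined. In the FGF1 window, the AP-1 match TGAGTCA began 41 bases before the start site of that window. SMAD matches began at positions -223 and 37 and TEAD matches at -236 and -189, counted from the start site. In the PDGFRA window, the AP-1 match TGAATCA began 32 bases before the start site, and the SMAD match lay on the other strand (GTCTG as printed) at position -230. There was no TEAD match in the PDGFRA window and no CArG match in either. Among all 35116 RefSeq windows of this length, 45.3% held the SMAD motif, 7.7% the AP-1 motif, 14% the TEAD motif and 1.3% the CArG box. These are matches of letters, and the libraries hold no measurement of binding.

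FGF1 had 137, 53 and 82 counts in the ALB libraries (replicates 1 to 3), against 1114, 991 and 1111 counts in the TGF-β1 libraries. Its levels were 1.05, 0.401 and 0.566 FPKM with ALB, against 8.0, 7.6 and 9.1 FPKM with TGF-β1 alone. The groups did not overlap, and the lowest TGF-β1 library was 7.25-fold above the highest ALB library. The groups were also apart for every other listed gene found in the table, which was selected on this contrast. The share over all 937 genes was not counted. The mean was 0.672 ± 0.336 FPKM in ALB libraries and 8.23 ± 0.778 FPKM in TGF-β1 libraries (SD, n = 3 each). The edgeR estimate of the log2 fold change was -3.63 (SE 0.34, 95% interval -4.38 to -2.87), or 12.4-fold lower with ALB (7.32 to 20.9). FGF1 ranked 15th by size of fold change among the 537 genes of the table with a lower level in the ALB group. Its FPKM exceeded that of 17.8% to 41.7% of the table's genes in ALB libraries, against 76.3% to 78.7% in TGF-β1 libraries.

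**Figure D1:**
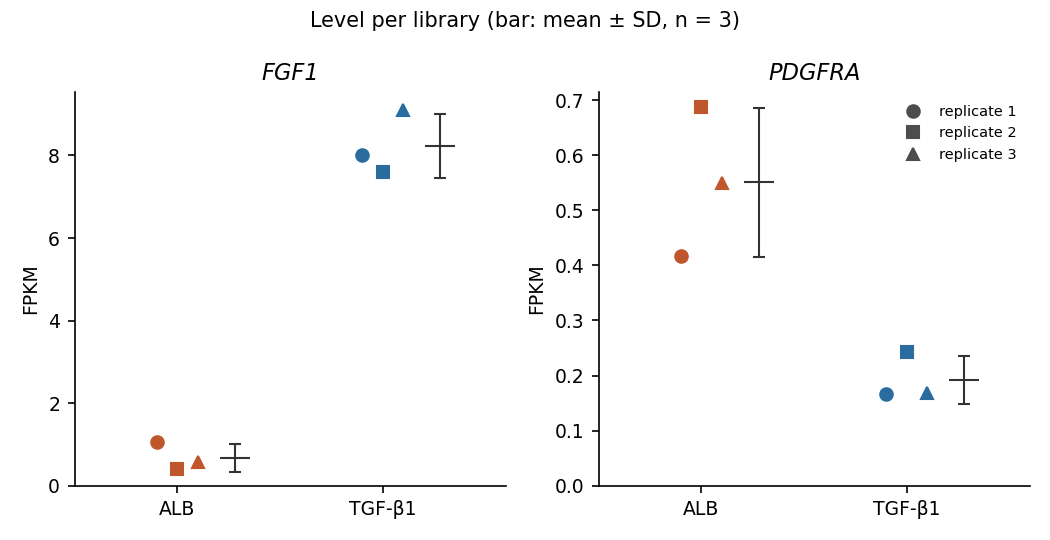
Level of FGF1 (left) and PDGFRA (right) in FPKM, 1 point per library, with ALB left of TGF-β1 in each panel and the mean ± SD beside the points (n = 3). FGF1 lies at 0.401 to 1.05 FPKM in ALB libraries and at 7.6 to 9.1 FPKM in TGF-β1 libraries, whereas PDGFRA lies at 0.418 to 0.688 FPKM in ALB libraries and at 0.166 to 0.242 FPKM in TGF-β1 libraries.

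PDGFRA had 69, 116 and 103 counts in the ALB libraries, against 33, 38 and 33 counts in the TGF-β1 libraries. Its levels were 0.418, 0.688 and 0.549 FPKM with ALB, against 0.166, 0.242 and 0.169 FPKM with TGF-β1 alone. The groups did not overlap either, as for the other listed genes, but the lowest ALB library was only 1.73-fold above the highest TGF-β1 library. The mean was 0.551 ± 0.135 FPKM in ALB libraries and 0.192 ± 0.0430 FPKM in TGF-β1 libraries (SD, n = 3 each). The log2 fold change was 1.39 (SE 0.30, 95% interval 0.72 to 2.06), or 2.62-fold higher with ALB (1.65 to 4.18). The lower end of this interval is under the 2-fold change by which the table was selected. The ratio of mean FPKM was 2.87. PDGFRA ranked 195th by fold change among the 400 genes with a higher level in the ALB group. It was weakly expressed throughout, and over all 6 libraries only 96 of the 937 genes had a lower mean FPKM.

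The counts set how closely each level was known. In ALB libraries, the 95% exact Poisson intervals of the FGF1 counts were 115 to 162, 39.7 to 69.3 and 65.2 to 102, a relative counting error of 8.54% to 13.7%. In TGF-β1 libraries the counting error of FGF1 was 3.00% to 3.18%. For PDGFRA the intervals were 53.7 to 87.3, 95.9 to 139 and 84.1 to 125 counts in ALB libraries, and 22.7 to 46.3, 26.9 to 52.2 and 22.7 to 46.3 counts in TGF-β1 libraries. Its counting error was 9.28% to 12% with ALB and 16.2% to 17.4% with TGF-β1 alone. In CPM (counts over the estimated depth, scaled like FPKM but without length), the interval of the lowest ALB library for PDGFRA (1.50 to 2.43) stayed just above that of the highest TGF-β1 library (0.755 to 1.46). These intervals cover counting error only, since the reads carry no stated molecular identifiers. They were not computed for the other genes of the table, which was selected on this contrast.

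**Figure D2:**
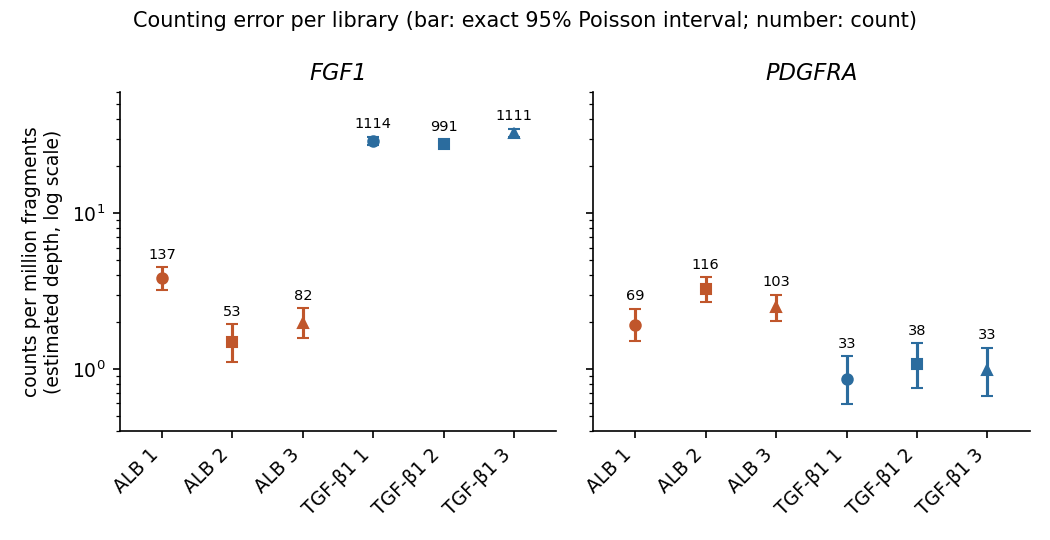
CPM at the estimated depth (log axis) for FGF1 (left) and PDGFRA (right), 1 point per library with its exact 95% Poisson interval and its count printed above, ALB libraries left of TGF-β1 libraries. The intervals of the 2 groups do not meet for either gene, in a table selected on this contrast. Those of PDGFRA with TGF-β1 alone, from 33 to 38 counts, are the widest.

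Counting error alone would leave FGF1 between 11.0-fold and 14.1-fold lower with ALB, from 272 summed counts in ALB libraries and 3216 in TGF-β1 libraries. It accounted for 7.38% of the squared standard error of the FGF1 fold change. The rest came from the dispersion fitted by edgeR, which pools both groups and draws on other genes. The spread of FGF1 itself was wider in the ALB group, where its highest level was 2.61-fold above the lowest, against 1.20-fold in the TGF-β1 group. The variance of FGF1 between libraries was 22.9 times the counting variance with ALB and 7.93 times with TGF-β1 alone. For PDGFRA, with 288 summed counts in ALB libraries and 104 in TGF-β1 libraries, counting alone gave 2.63-fold (2.09 to 3.32) and accounted for 30.7% of the squared standard error. This share depends on the model, since DESeq2 at the same depths gave PDGFRA a standard error of 0.36, beside 0.30 with edgeR. The variance of PDGFRA between libraries was 6.18 times the counting variance with ALB and 0.391 times with TGF-β1 alone. The PDGFRA counts of the 3 TGF-β1 libraries therefore varied no more than counting allows.

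The ALB libraries did not order the genes alike. ALB replicate 1 had the highest FGF1 and the lowest PDGFRA of its group, and ALB replicate 2 had the lowest FGF1 and the highest PDGFRA. The ratio of PDGFRA to FGF1 in FPKM was 0.399, 1.72 and 0.970 in ALB replicates 1 to 3, against 0.0208, 0.0319 and 0.0186 in TGF-β1 replicates 1 to 3. The ratio was thus higher in every ALB library, and only in ALB replicate 2 was PDGFRA the more highly expressed gene per length. The log2 fold changes of the genes differed by 5.02, a 32.4-fold change in their ratio, and library scaling largely cancels in this difference. On log2(FPKM + 1) the difference was 2.86, a 7.25-fold change, and on log2(FPKM + 0.1) it was 4.66, a 25.3-fold change. In the edgeR fit at the estimated depths, leaving out ALB replicate 1 moved the 32.4-fold change to 50.8-fold. Leaving out any other library gave 23.5-fold to 35.4-fold in that fit.

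Growth factor genes of the table went in both directions. Among 133 growth factor ligand and receptor genes listed with earlier results known, 18 were in the table, 8 of them higher and 10 lower with ALB. All 18 passed edgeR's quasi-likelihood test (Benjamini-Hochberg adjusted over 937 genes, threshold 0.05), but so did 99.4% of the table, 42.5% as higher and 56.9% as lower, because the table holds genes already called on these libraries. The calls of the whole table were 398 higher and 533 lower at the estimated depths, but 400 higher and 331 lower with scaling factors computed from the table's genes (TMM), and 400 higher and 278 lower with DESeq2's own size factors. Nothing is read from these counts about growth factors as a group. Their median log2 fold change was -0.96, beside -0.97 over the whole table. By role, 9 of 14 ligands fell and 5 rose, and 3 of 4 receptors rose and 1 fell. Of the lower ligands 7 passed with TMM factors and 6 under the size factors of DESeq2, and the lower receptor passed in neither, whereas all 5 higher ligands and 3 higher receptors passed in both. No gene of the 18 changed direction under any scaling or model that gave it a value. With a filter of 50 counts in every library, only 12 of them had a value.

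All 4 FGF ligands in the table, of 22 listed, fell with ALB, with a median log2 fold change of -2.43. FGF2, the basic fibroblast growth factor, was the most abundant, at 27.5, 25.4 and 17.6 FPKM in ALB libraries, against 41.9, 51.4 and 42.4 FPKM in TGF-β1 libraries. Its log2 fold change was -0.95 (SE 0.20). With TMM factors, which rest on genes already called as different, it was -0.36 and did not pass the test (edgeR adjusted p = 0.1). FGF5 was at 3.97 ± 0.322 FPKM in ALB libraries and 12 ± 0.264 FPKM in TGF-β1 libraries (SD, n = 3 each; log2 fold change -1.64, SE 0.16). FGF14, an intracellular member of the family that is not secreted as a receptor ligand, rested on 15, 9 and 16 counts with ALB, against 149, 136 and 72 counts with TGF-β1 alone (log2 fold change -3.21, SE 0.37). Its counts in ALB libraries were lower than those of either FGF1 or PDGFRA in any library.

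The summed level of these 4 genes was 28.2 ± 5.63 FPKM in ALB libraries and 65.7 ± 4.85 FPKM in TGF-β1 libraries (SD, n = 3 each). FGF1 made up 3.22%, 1.33% and 2.59% of that sum in ALB replicates 1 to 3, against 12.9%, 10.7% and 14.2% in TGF-β1 replicates 1 to 3. FGF2 made up 80.6% to 84.5% with ALB, against 66.2% to 72.2% with TGF-β1 alone. FGF1 thus held a smaller share of the summed FPKM of these 4 genes in every ALB library, with the other 18 listed FGF genes not analysed here, and FGF2 was the main FGF ligand of the table in both groups.

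On the receiving side, FGFR3, a receptor tyrosine kinase for FGF1 and other FGFs, was the only one of 7 FGF receptors and co-receptors in the table. It rose, at 5.97, 5.69 and 4.15 FPKM in ALB libraries, against 1.94, 1.83 and 1.45 FPKM in TGF-β1 libraries (log2 fold change 1.61, SE 0.21). SDC4, which encodes the heparan sulfate proteoglycan syndecan-4, was the only one of 22 genes for FGF carriers, heparan sulfate core proteins and FGF1 release. It was at 217 ± 14.4 FPKM in ALB libraries and 87.0 ± 7.33 FPKM in TGF-β1 libraries (SD, n = 3 each; log2 fold change 1.32, SE 0.15). With ALB, the 4 FGF genes of the table, FGF14 among them, were thus lower, and the single genes FGFR3 and SDC4 were higher. Over the whole table, 56.9% of genes passed as lower and 42.5% as higher. No pattern of ligands and receptors is read from these few genes. FGFR1, FGFR2 and FGFR4 were not analysed here.

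Of 7 PDGF ligand and receptor genes, PDGFRA and PDGFD were in the table, both higher with ALB. PDGFD, the D-chain ligand, had 226, 214 and 142 counts in ALB libraries, against 56, 31 and 34 counts in TGF-β1 libraries. Its level was 1.35 ± 0.397 FPKM in ALB libraries and 0.274 ± 0.0768 FPKM in TGF-β1 libraries (SD, n = 3 each; log2 fold change 2.22, SE 0.34). Like PDGFRA, it was thus a gene of few counts in TGF-β1 libraries. PDGFRB and the genes of the A, B and C chains were not analysed here.

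**Figure D3:**
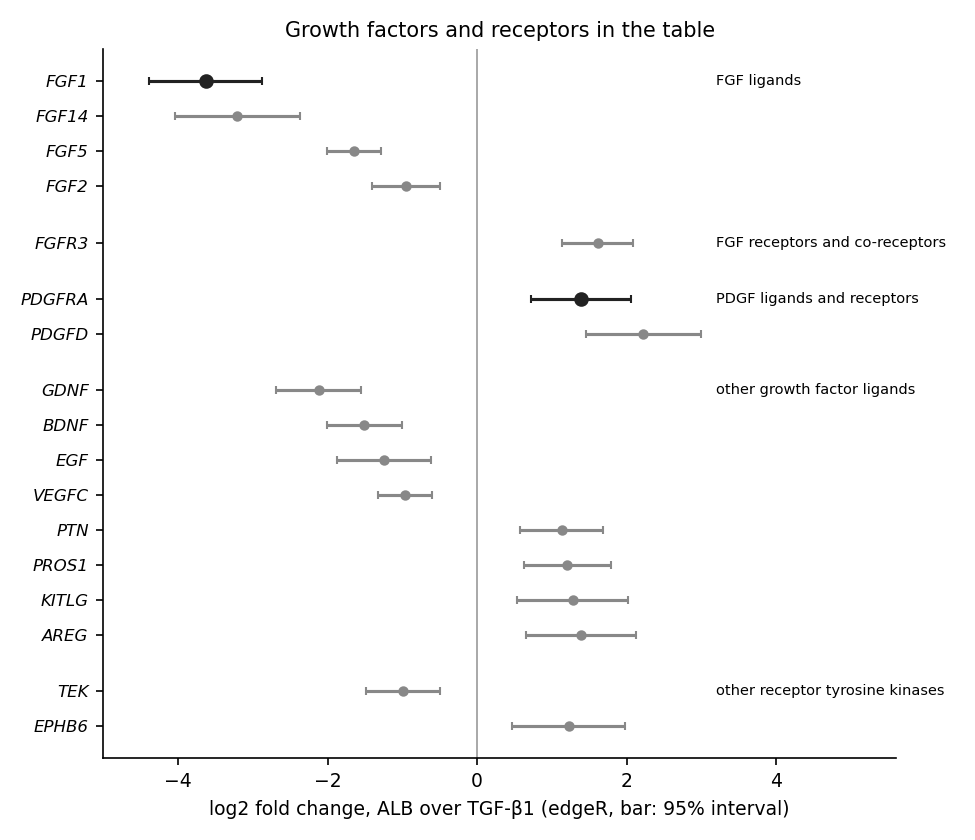
Log2 fold change of 17 growth factor and receptor genes of the table, ALB over TGF-β1, from edgeR, with 95% intervals, grouped by role (FGF1 and PDGFRA in black, other genes in grey). The 4 FGF ligands lie left of 0, FGFR3, PDGFRA and PDGFD lie right of 0, and FGF1 at -3.63 is the farthest from 0.

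Among 47 other growth factor ligands, 9 were in the table, 5 lower and 4 higher with ALB. The neurotrophic ligands GDNF (log2 fold change -2.12, SE 0.25) and BDNF (-1.51, SE 0.22) fell. GDNF was at 0.865 ± 0.267 FPKM in ALB libraries and 3.79 ± 0.52 FPKM in TGF-β1 libraries (SD, n = 3 each). EGF, the epidermal growth factor (-1.25, SE 0.28), and VEGFC, a lymphatic endothelial growth factor (-0.96, SE 0.16), fell too. The EGF receptor ligand AREG (1.39, SE 0.33), the KIT ligand KITLG (1.28, SE 0.33), PROS1, which activates TAM receptors (1.21, SE 0.26), and pleiotrophin, PTN (1.13, SE 0.25), rose. Of 50 other receptor tyrosine kinases, the angiopoietin receptor TEK fell (-0.99, SE 0.22) and the kinase-deficient ephrin receptor EPHB6 rose (1.22, SE 0.33). With TMM factors, VEGFC and TEK did not pass the test (edgeR adjusted p = 0.0729 and 0.158).

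Below the receptors, 2 of 34 genes for ERK feedback and early ERK targets were in the table, and both fell. EGR2, an immediate early transcription factor, was at 2.37 ± 1.34 FPKM in ALB libraries and 9.98 ± 1.93 FPKM in TGF-β1 libraries (SD, n = 3 each; log2 fold change -2.07, SE 0.41). CCND1, which encodes cyclin D1, was at 105 ± 9.33 FPKM in ALB libraries and 195 ± 8.65 FPKM in TGF-β1 libraries (log2 fold change -0.89, SE 0.15), and it did not pass with TMM factors (edgeR adjusted p = 0.18). Of 41 adaptors, kinases and phosphatases, 2 were in the table, and both rose. They were SHC4, a SHC adaptor (log2 fold change 1.24, SE 0.37), and PIK3R3, a regulatory subunit of PI3-kinase (1.14, SE 0.22). Phosphorylation of the receptors, ERK or AKT was not measured in these libraries.

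If FPKM is count over transcript length and depth, count and FPKM of a gene together imply that length. It comes from the columns whose levels were used to choose the genes, but is not itself a level. The counter and annotation were not named, and 124 of the 937 rows have locus names (MSTRG) in place of symbols. The transcripts used may thus differ from those of GENCODE. For FGF1 the implied length was 3644, 3691 and 3487 bases in ALB replicates 1 to 3, against 3652, 3663 and 3615 bases in TGF-β1 replicates 1 to 3. The means differed by -1.0% (two-sided exact permutation test, p = 0.8, adjusted over both genes 0.8). The annotated coding transcript nearest in length is FGF1-202, at 3660 bases. Other coding transcripts of FGF1 are close to it, so this length does not identify a transcript.

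For PDGFRA the implied length was 4604, 4711 and 4515 bases in ALB libraries, against 5210, 4409 and 5780 bases in TGF-β1 libraries. The groups overlapped and the means differed by -10.2% (two-sided exact permutation test, p = 0.4, adjusted 0.8), or by -16.1% without TGF-β1 replicate 2 and by -4.1% without TGF-β1 replicate 3. With 3 libraries against 3 this test cannot go below 0.1. The lengths lie between those of the coding transcripts PDGFRA-201 (6576 bases) and PDGFRA-206 (2202 bases). The ratio of count to FPKM varied between libraries with an SD of 0.149 on the log2 scale for PDGFRA and 0.029 for FGF1, beside a median of 0.029 over 565 genes with at least 50 counts in each library, a minimum that PDGFRA did not reach. TGF-β1 replicate 2 shows this directly, since its 38 counts gave 0.242 FPKM whereas 33 counts gave 0.166 and 0.169 FPKM in the others. The part of transcript length and of the few counts in this variation was not tested.

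**Figure D4:**
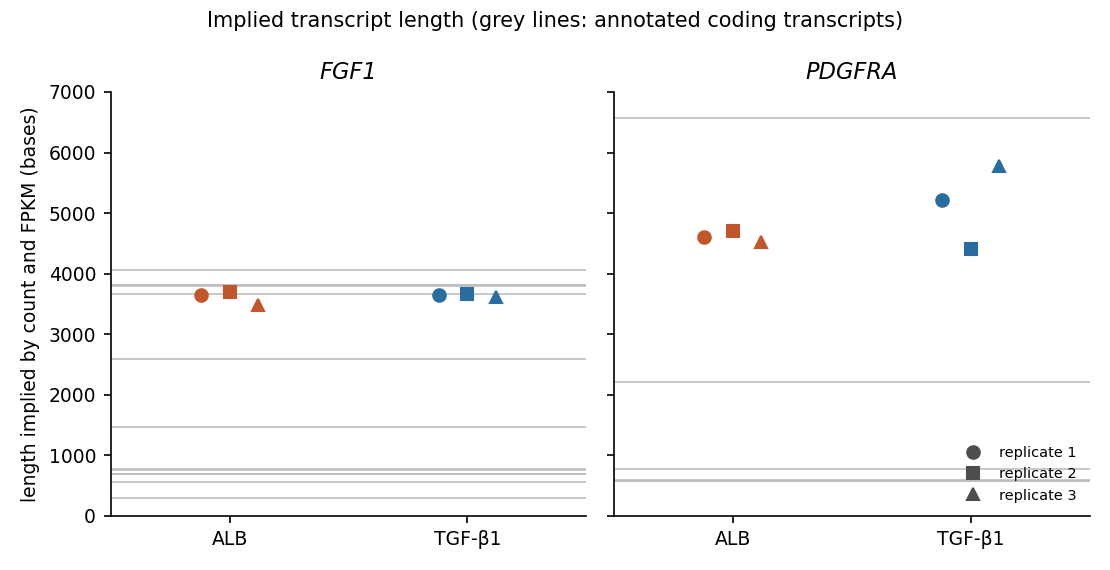
Transcript length implied by count, FPKM and estimated depth, in bases, for FGF1 (left) and PDGFRA (right), 1 point per library, ALB left of TGF-β1, with annotated coding transcript lengths as grey lines. FGF1 stays between 3487 and 3691 bases in all libraries, and PDGFRA spreads from 4409 to 5780 bases in the TGF-β1 group.

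The genes whose pattern over the 6 libraries was most like each of the pair were found by root mean square distance of log2 CPM (plus 0.1), each centred on its mean, among 796 genes with a symbol. This distance takes in the difference between groups as well as the spread within them, so it describes these libraries and is given without a test. The nearest to FGF1 were DKK1, a secreted WNT antagonist (distance 0.14), EDN1, the endothelin-1 gene (0.27), and TGFB2, which encodes TGF-β2 (0.34), beside a median of 1.44 over all genes. DKK1 had 864, 404 and 620 counts in ALB libraries, against 6405, 5682 and 7360 in TGF-β1 libraries, with ALB replicate 1 the highest and ALB replicate 2 the lowest of its group, as for FGF1. Its log2 fold change was -3.44 (SE 0.30), with -4.15 (SE 0.34) for EDN1 and -4.00 (SE 0.30) for TGFB2.

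Among the 3 nearest to PDGFRA were the interferon regulatory factor gene IRF5 (distance 0.11) and the adhesion molecule gene ICAM5 (0.11), beside a median of 1.17 over all genes. IRF5 had 102, 143 and 126 counts in ALB libraries, against 48, 56 and 42 in TGF-β1 libraries. Its ALB libraries were ordered as those of PDGFRA, with replicate 1 lowest and replicate 2 highest. Its log2 fold change was 1.27 (SE 0.27), with 1.26 (SE 0.26) for ICAM5.

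**Figure D5:**
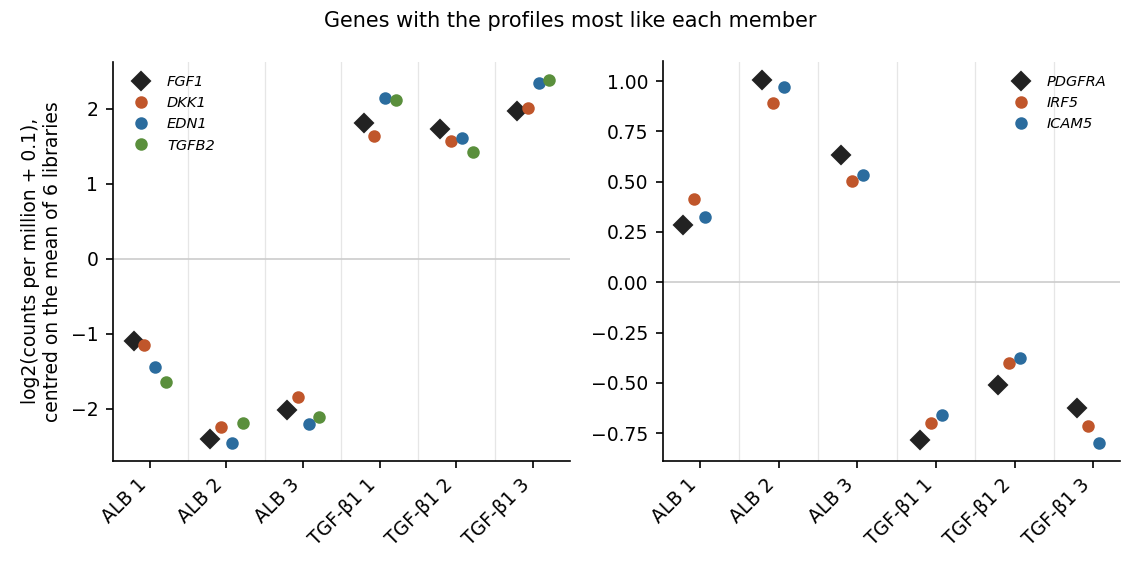
Level in each library, as log2(CPM + 0.1) centred on the mean of the 6 libraries, for FGF1 with DKK1, EDN1 and TGFB2 (left) and PDGFRA with IRF5 and ICAM5 (right), ALB libraries left of TGF-β1 libraries. In both panels the black diamonds of FGF1 or PDGFRA lie close to the circles of the other genes in every library, at distances of 0.14 to 0.34 on the left and 0.11 on the right.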

How the data were processed

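RNA-seq libraries of LX-2 cells (3 ALB, 3 TGF-β1) were made from poly(A) RNA and sequenced by the authors on a NovaSeq X Plus. The authors deposited whole-number counts per gene for the genes of their final DESeq2 list. They also deposited FPKM values of the same genes. CASAVA 1.4 is named in the submitters' processing notes, as are mm9 and mm10, which are mouse builds, although the genes are human. For the aligner, counter, annotation and human build, names and versions were not given in the sources used here. The authors' own fold changes and p-values, also in the table, were not used.

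Columns were matched to samples by group initial and number, and in the TGF-β1 group by the number alone, on which no group mean depends. Depth was estimated from count over FPKM in 565 genes (50 or more counts in each library), scaled by 42 genes with a single transcript in GENCODE 29. Counts were fitted with edgeR 4.0.16 (quasi-likelihood test, estimated depths as library sizes, Benjamini-Hochberg over 937 genes) in R 4.3.3, where the DESeq2 and limma alternatives were run too. Values outside these fits were computed in Python 3.11.15 with scipy 1.17.1. Intervals are at 95%. The edgeR standard errors were derived from the log2 fold change and the F statistic of the quasi-likelihood test, and the edgeR intervals from these errors.

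Alternatives were TMM, table sums, DESeq2 1.42.0, limma 3.58.1 on log2(FPKM + 1) and log2(FPKM + 0.1), the 50-count filter, a replicate block and each library left out. The genes named were FGF1 and PDGFRA, listed genes found in the table (at most 4 per list outside growth factors and receptors), markers in the table and the 3 nearest genes to each of the pair, and 2 of these genes are not reported here. FGF1, PDGFRA and all lists were chosen with earlier results of these data known. The edgeR code was tested on simulated data.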

Additional observations from a re-analysis of the deposited data

How the results depend on the processing

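FGF1 stayed lower and PDGFRA higher with ALB in every setting that gave a value. The log2 fold change of FGF1 was -3.01 with TMM factors, -2.87 with table sums, -2.92 with DESeq2's own size factors and -2.48 with limma on log2(FPKM + 1), beside -3.63. That of PDGFRA was 1.98, 2.14, 2.09 and 0.38 in the same settings, beside 1.39. The first 3 scale by the table's genes and raised the median of the table by 0.61, 0.75 and 0.71, and the pseudocount of 1 is larger than the PDGFRA level of every library. Leaving out single libraries gave -4.11 to -3.38 for FGF1 and 1.18 to 1.56 for PDGFRA. With the 50-count filter PDGFRA had no value, and 564 of 565 genes were called, beside 931 of 937. Without single libraries, the difference in implied length of FGF1 was -2.1% to 0.7%, reversed without ALB replicate 3. With DESeq2's own size factors 678 genes were called, and 14 of the 18 growth factor and receptor genes, without FGF2, EGF, VEGFC and TEK.

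With the column number as a replicate block, the log2 fold change was -3.73 for FGF1 and 1.37 for PDGFRA, and 925 genes were called. Deviations of same-numbered libraries correlated at 0.068, 0.002 and -0.088, within the range of differently numbered libraries (-0.12 to 0.122). Whether any libraries shared a culture or batch was not tested.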
